A study of Mus musculus with 4 samples.

Results

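Genes of the lysosome were compared between mouse Kupffer cells given 2 kinds of tumour exosome. The set held 47 genes picked by symbol, 36 of them encoding hydrolases, their cofactors or proteins of the lysosomal membrane and 11 encoding subunits of the proton pump, out of 56004 gene rows in the series. All 47 symbols were found, each in a single row. Of these, 46 passed the filter for testing (FPKM not below 1 in 2 libraries or more), as did 12193 rows in all. FPKM is a fragment count scaled for transcript length and for the depth of the library. The exception was Ctsh, which encodes cathepsin H, at 0.39 and 0.53 FPKM in PRL-3 replicates 1 and 2, against 0.22 and 0.48 in VT replicates 1 and 2.

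The series held 4 RNA-seq libraries. Of these, 2 were of cells given exosomes (small secreted vesicles) of MC38-PRL-3 mouse colon carcinoma cells. The other 2 were of cells given those of MC38-VT, taken here as the line to compare with. The name PRL-3 refers to a protein phosphatase, the product of Ptp4a3, and the labels do not spell out VT. RNA of both groups was taken at 48 h, and an amount of 10 ug stands in the labels beside the MC38-VT exosomes. Strain, age and sex of the mice and the number of cultures behind a library were not found in the sources read, and no group without exosomes was analysed here. The labels call the libraries of a group biological replicates, but since nothing states that they came from separate cultures, p-values measure only the spread between these libraries. The libraries are called PRL-3 and VT libraries below.

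The lysosome is the compartment in which macrophages digest what they engulf, exosomes included. A membrane-bound pump, the V-ATPase, spends ATP in its cytosolic V1 sector to drive protons through its V0 sector, and the acid lumen so formed keeps proteases, glycosidases and lipid-cleaving enzymes active. Many of these genes are known to share a promoter element that is bound by the transcription factors TFEB and TFE3 and holds the E-box CACGTG.

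Promoter windows of these genes were searched for that element, to show what the members share in sequence. RefSeq windows on GRCm38.p6, from 250 bases before to 50 bases after a start site, were matched by symbol for 38 of the 47 genes, and those of Ctsb, Ctsh, Npc1, Galns, Asah1, Atp6v0d2, Atp6v1b2, Atp6v1c1 and Atp6v1h were not matched. An exact CACGTG, which reads the same on both strands, was present for 14 of the 38 (36.8%), against 8.09% of all 27025 genes with a window and 12.2% of the 8685 tested genes with one. The longer palindrome TCACGTGA, which contains CACGTG, was present for 6 of the 38 (15.8%), against 1.12% of all genes and 2.36% of tested genes. A match is a description of these letters and not of binding. The stretch around the longer palindrome is printed for those 6 genes on the strand of the gene, from 5′ to 3′, with the palindrome in capitals. In the same order they lie at chr2:164833730-164833797, chr7:142387889-142387956, chr8:3500443-3500510, chr8:105566031-105566098, chr16:44139354-44139421 and chrX:134601196-134601255 of GRCm38.p6, on the plus strand for Ctsa and Mcoln1 and on the minus strand for the others.
Ctsa: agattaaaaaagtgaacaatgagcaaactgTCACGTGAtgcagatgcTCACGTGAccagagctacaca
Ctsd: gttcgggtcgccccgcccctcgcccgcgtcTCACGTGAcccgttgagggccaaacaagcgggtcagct
Mcoln1: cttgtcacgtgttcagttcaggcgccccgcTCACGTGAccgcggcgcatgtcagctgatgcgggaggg
Atp6v0d1: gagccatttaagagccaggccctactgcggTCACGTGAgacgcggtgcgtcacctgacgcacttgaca
Atp6v1a: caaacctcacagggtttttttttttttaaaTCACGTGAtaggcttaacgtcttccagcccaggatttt
Gla: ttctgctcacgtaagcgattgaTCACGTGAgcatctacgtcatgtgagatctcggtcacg

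Lamp1, whose window held 4 copies of CACGTG without the longer palindrome, is shown for comparison at chr8:13159070-13159135 on the plus strand, with the 2 copies of this stretch in capitals.
Lamp1: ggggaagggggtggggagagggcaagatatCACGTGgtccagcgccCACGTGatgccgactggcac

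The files gave no read counts, so depth was inferred from the steps between low values and came, in units of 1000000 fragments, to 16.9 and 18.1 in PRL-3 replicates 1 and 2, against 17.8 and 18.3 in VT replicates 1 and 2. The sum of FPKM over all genes was lowest in PRL-3 replicate 1 and highest in PRL-3 replicate 2. Of 8 general macrophage markers, 7 reached an FPKM of 1 in at least 2 libraries, the exception being Mertk, at 0.02 FPKM or less. Of 14 markers of resident Kupffer cells, 3 did so (Cd5l, Id3 and Nr1h3), and 6 were listed at 0 in all 4 libraries (Clec4f, Vsig4, Timd4, C6, Marco and Cd163), so the Kupffer label rests on the submitters. Markers of hepatocytes, endothelium, T or NK cells, B cells and epithelium were at 0.40 FPKM or less. Of 6 neutrophil markers, S100a8 was at 216 to 309 FPKM over the 4 libraries, S100a9 was at 0.40 or less and the other 4 were listed at 0. In addition, the summed level of 8 stellate cell or fibroblast markers was 13.1 and 10.5 in the PRL-3 libraries, against 7.09 and 6.43 in VT cells. Dcn, the highest of them, overlapped between the groups at 6.63 and 4.32 FPKM, against 5.44 and 4.65. Acta2, Tagln, Col1a1, Col1a2 and Col3a1, at 2.61 FPKM or less, had both PRL-3 libraries above. Des did not separate the groups, and Lrat was listed at 0. The part of these markers in the results was not tested.

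None of the 46 lysosomal genes tested was significantly different between the groups. The lowest adjusted p among them was 0.631 (limma, adjusted over all 12193 genes), and 0 of them had an unadjusted p under 0.05. Over all genes, 0.0492% were called at an adjusted p under 0.05 and 9.51% had an unadjusted p under 0.05. On the log2(FPKM + 1) scale the PRL-3 mean was the higher one for 28 members (60.9%, against 53.4% of all genes tested) and the lower one for 18. The median difference over members was 0.04, against 0.02 over all genes tested. Differences between groups are given as log2(FPKM + 1) of PRL-3 less that of VT, a scale that makes the change of genes with low levels look smaller. For 44 of the 46 the difference was smaller than 0.25 in either direction, the exceptions being Naglu and Atp6v0d2. The 95% interval of the difference spanned 0 for each, with a median reach of 0.31 to either side, or 1.24-fold, and a widest reach of 0.89 for Atp6v0d2. Changes within these intervals could not be told from none with 2 libraries a group. An exact permutation test of 2 against 2 cannot give a two-sided p below 0.333, so the test rests on the spread that limma shares across genes. In these bulk libraries, fewer cells of a type and less RNA per cell cannot be told apart.

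**Figure D1:**
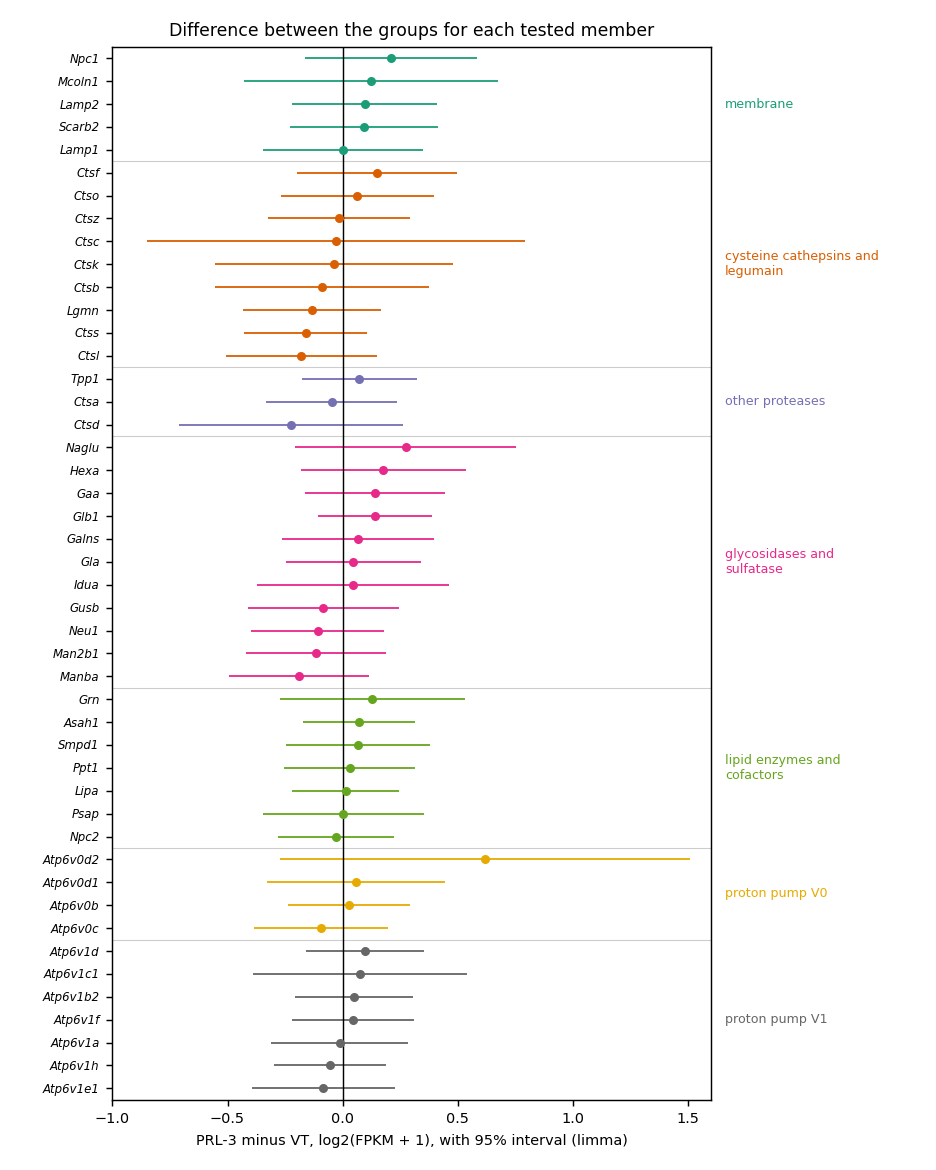
Difference between the PRL-3 and VT libraries on the log2(FPKM + 1) scale (horizontal axis) for the 46 tested members, grouped by role. Points are the limma estimates and bars their 95% intervals, all of which cross 0, and Atp6v0d2 has the highest estimate (0.62).

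The groups seldom separated. A clean separation with the PRL-3 pair on top was seen for 1 of the 46 members (2.17%), Glb1, against 24.3% of all genes tested. The PRL-3 pair lay below for 1 member (2.17%), Ctss, against 18% of all genes. The commonest order was instead a split PRL-3 pair, with replicate 1 above and replicate 2 below both VT libraries. This order was noticed after the values were seen and is given as a description. It was found for 19 of the 46 members (41.3%), against 7.17% of all genes tested. The opposite order, with replicate 2 highest and replicate 1 lowest, was found for 1 member (2.17%), Ctsc, against 12.4% of all genes. The gap between the PRL-3 libraries was larger in size than the difference between the groups for 38 of the 46. The same held for 7297 of the 12193 genes tested.

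Membrane proteins had the widest split between the PRL-3 libraries of the role groups. Lamp1, a glycoprotein that lines the lysosomal membrane (chromosome 8, 13159161 to 13175338, plus strand), stood at 470.4 and 369.8 FPKM in PRL-3 replicates 1 and 2, against 418 and 415 in VT replicates 1 and 2. The VT values lay between the PRL-3 values, and the difference between the groups was 0.002 (SE 0.14, adjusted p = 0.998 by limma). Its relative Lamp2, which also serves in chaperone-mediated autophagy, had the same order, at 191 and 156 FPKM in PRL-3 cells, against 166 and 157 in VT cells. So did Scarb2, the receptor that carries glucocerebrosidase to lysosomes, at 12.7 and 10.5 FPKM, against 10.7 and 11.0.

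Npc1 moves cholesterol out of the lysosome (chromosome 18, 12189692 to 12236400, minus strand). It was at 72.8 and 54.3 FPKM in PRL-3 cells, against 54.8 and 53.7 in VT cells. Only PRL-3 replicate 1 stood off, and the difference was 0.21 (SE 0.15, adjusted p = 0.694 by limma), falling to 0.003 without that library. Mcoln1, a cation channel of the lysosomal membrane that releases calcium (chromosome 8, 3500457 to 3515232, plus strand), stood at 42.1 and 29.0 FPKM in PRL-3 cells, against 37.4 and 27.5 in VT cells. Here the libraries numbered 1 were high and those numbered 2 low in both groups, and the difference was 0.12 (SE 0.22, adjusted p = 0.889 by limma).

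**Figure D2:**
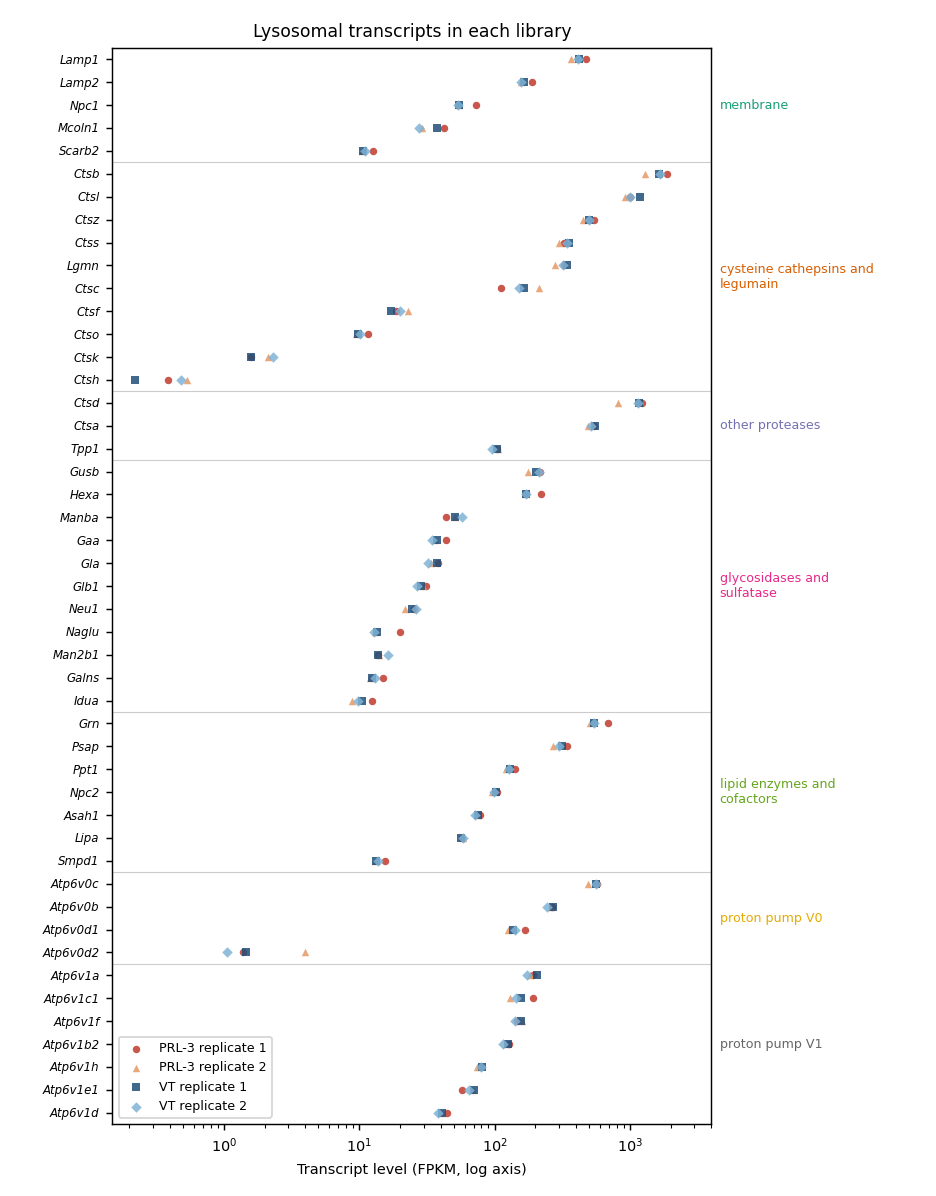
FPKM of the 47 members in each library (horizontal log axis), grouped by role and ordered by mean level, with 1 marker per library. Levels ran from below 1 FPKM for Ctsh to over 1000 for Ctsb, and the markers of a gene mostly sit close together, with Ctsc and Atp6v0d2 spread widest apart among the tested members.

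The proteases included the most abundant transcripts of the set. Ctsb, which encodes cathepsin B, a cysteine protease (chromosome 14, 63122462 to 63145923, plus strand), stood at 1885 and 1295 FPKM in PRL-3 cells, against 1645 and 1677 in VT cells. Both extremes belonged to PRL-3 cells, and the difference was -0.09 (SE 0.19, adjusted p = 0.907 by limma). Ctsd, which encodes the aspartic protease cathepsin D (chromosome 7, 142375911 to 142388038, minus strand) and has the palindrome shown above, stood at 1221 and 813 FPKM, against 1173 and 1157. PRL-3 replicate 2 alone was low, and the difference was -0.22 (SE 0.20, adjusted p = 0.756 by limma). Without PRL-3 replicate 1 it was -0.52 and without PRL-3 replicate 2 it was 0.07.

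Ctsl, the gene of the cysteine protease cathepsin L (chromosome 13, 64359337 to 64370890, minus strand), stood at 1005 and 923 FPKM in PRL-3 cells, against 1191 and 999 in VT cells. The groups overlapped by a narrow margin, and the difference was -0.18 (SE 0.13, adjusted p = 0.703 by limma). Ctss, which encodes cathepsin S, a protease that trims the invariant chain in antigen-presenting cells (chromosome 3, 95526786 to 95556403, plus strand), stood at 328 and 297 FPKM, against 352 and 346. It was the member with both PRL-3 libraries below, by -0.16 (SE 0.11, adjusted p = 0.677 by limma). Of the 9 cysteine proteases tested, 7 had a difference below 0 and 0 were called, with a median difference of -0.04. Among the 7 was Ctsc, whose mean FPKM was higher in PRL-3 cells although its difference on the log2(FPKM + 1) scale was -0.03.

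Ctsc stood apart from the other cathepsins. It encodes the dipeptidyl peptidase that activates granule serine proteases, and was at 112 and 214 FPKM in PRL-3 cells, against 164 and 152 in VT cells. Replicate 2 was thus the highest library and replicate 1 the lowest, the reverse of Ctsb, and the means were close at 163 ± 72.5 in PRL-3 cells and 158 ± 8.43 in VT cells (SD, n = 2 each). Ctsf was also highest in PRL-3 replicate 2, with 18.6 and 23.0 FPKM, against 17.3 and 19.9. Ctsk, the collagen-cleaving protease known from osteoclasts, was at 1.59 and 2.12 FPKM, against 1.58 and 2.30, or roughly 35 to 54 fragments a library. The remaining cysteine proteases overlapped between the groups, among them Ctsz at 541 and 454 FPKM, against 503 and 500.2, Ctso at 11.6 and 9.45, against 9.82 and 10.1, and Lgmn, which processes other cathepsins, at 326 and 281, against 345 and 320.1.

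Ctsa encodes a serine carboxypeptidase that also shields the sialidase and beta-galactosidase from breakdown (chromosome 2, 164832873 to 164841032, plus strand). It was at 548 and 491 FPKM in PRL-3 cells, against 556 and 517 in VT cells, a difference of -0.05 (SE 0.12, adjusted p = 0.920 by limma). Tpp1, a tripeptidyl peptidase (chromosome 7, 105744811 to 105752235, minus strand), stood at 104 and 106 FPKM, against 104 and 95.5, a difference of 0.07 (SE 0.10, adjusted p = 0.850 by limma). Neither gene separated the groups.

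Enzymes that strip sugars from glycoproteins, glycolipids and glycosaminoglycans showed small differences in both directions. Of the 11 tested, 7 had a difference above 0 and 4 one below 0, with 0 called and a median difference of 0.05. Gusb, the beta-glucuronidase and the most abundant (chromosome 5, 129989011 to 130003049, minus strand), stood at 218 and 176 FPKM in PRL-3 cells, against 202 and 213 in VT cells. PRL-3 cells again held both extremes, and the difference was -0.08 (SE 0.13, adjusted p = 0.864 by limma). Naglu, which removes N-acetylglucosamine residues from heparan sulfate (chromosome 11, 101070012 to 101077672, plus strand), stood at 19.9 and 13.1 FPKM, against 13.5 and 12.9. Its difference of 0.27 (SE 0.20, adjusted p = 0.692 by limma) rested on PRL-3 replicate 1, without which it was -0.01.

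Manba, the beta-mannosidase (chromosome 3, 135485611 to 135571404, plus strand), had the lowest difference of these enzymes. It was at 43.5 and 51.5 FPKM in PRL-3 cells, against 51.2 and 57.2 in VT cells, a difference of -0.19 (SE 0.12, adjusted p = 0.666 by limma), and the groups just overlapped. Glb1, the beta-galactosidase and the member with both PRL-3 libraries above, was at 31.2 and 29.6 FPKM, against 28.4 and 26.6. Hexa, which encodes the alpha subunit of beta-hexosaminidase, was at 220.3 and 169 FPKM, against 169.6 and 172, so that only PRL-3 replicate 1 was high. The iduronidase Idua at 12.4 and 8.91 FPKM, against 10.6 and 9.80, and the sulfatase Galns at 14.9 and 12.1, against 12.5 and 13.0, had the split order of Lamp1. Neu1, Gaa, Gla and Man2b1 lay between 13.7 and 43.8 FPKM in all 4 libraries, with differences from -0.12 to 0.14.

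Lipid-handling enzymes and cofactors had the highest share of split pairs, with PRL-3 replicate 1 highest and replicate 2 lowest for 5 of 7. Grn, which encodes progranulin, a precursor whose granulin fragments act in the lysosome (chromosome 11, 102430315 to 102437048, plus strand), stood at 689 and 506 FPKM in PRL-3 cells, against 542 and 539 in VT cells. The VT values were close to each other while the PRL-3 values were far apart, and the difference was 0.13 (SE 0.16, adjusted p = 0.832 by limma). Psap, the precursor of the saposins that help sphingolipid hydrolases, was at 345 and 271 FPKM, against 313 and 297. Smpd1, the acid sphingomyelinase (chromosome 7, 105554360 to 105558389, plus strand), stood at 15.6 and 13.0 FPKM, against 13.3 and 13.8, a difference of 0.07 (SE 0.13, adjusted p = 0.894 by limma).

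Of the other members of that group, Asah1 and Lipa were nearly level over the 4 libraries. Asah1, the acid ceramidase (chromosome 8, 41340197 to 41374773, minus strand), stood at 78.7 and 75.8 FPKM in PRL-3 cells, against 75.9 and 71.2 in VT cells, a difference of 0.07 (SE 0.10, adjusted p = 0.848 by limma). Lipa, the acid lipase that frees cholesterol from its esters, was the flattest, at 57.5 and 58.0 FPKM, against 56.3 and 58.1, with a 95% interval of the difference from -0.22 to 0.25. The cholesterol-binding Npc2, at 104 and 95.1 FPKM, against 103 and 99.8, and the thioesterase Ppt1, at 143 and 122, against 130.3 and 128, had the split order, with gaps between the PRL-3 libraries of 0.12 for Npc2 and 0.23 for Ppt1.

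The 11 proton pump subunits had a smaller median of replicate 1 minus replicate 2 in the PRL-3 libraries, 0.08, than the other members did, 0.25. This median keeps the sign, and the gaps of single subunits ran from -1.06 for Atp6v0d2 to 0.56 for Atp6v1c1. Atp6v0c, the proteolipid that forms most of the V0 ring (chromosome 17, 24163866 to 24169702, minus strand), stood at 567 and 491 FPKM in PRL-3 cells, against 564 and 563 in VT cells, a difference of -0.09 (SE 0.12, adjusted p = 0.832 by limma). Its value is uncertain, since the processed pseudogene Atp6v0c-ps2 was listed at 359.96 and 248.9 FPKM, against 275.14 and 336.88, and reads of such near copies can be shared out either way. Atp6v0b, another ring subunit, was at 265 and 263 FPKM, against 273 and 246. Atp6v0d1, the broadly used form of the stalk subunit d (chromosome 8, 105524465 to 105566047, minus strand), stood at 169 and 125 FPKM, against 137 and 142, a split pair with a difference of 0.06 (SE 0.16, adjusted p = 0.930 by limma).

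Atp6v0d2, the alternative form of subunit d known from osteoclasts and some macrophages (chromosome 4, 19876841 to 19922605, minus strand), had the highest estimate of all members. It was at 1.39 and 3.99 FPKM in PRL-3 cells, against 1.47 and 1.05 in VT cells, or roughly 54 and 168 fragments, against 61 and 45. PRL-3 replicate 2 alone was high, while PRL-3 replicate 1 lay between the VT libraries, and the difference was 0.62 (SE 0.36, adjusted p = 0.631 by limma). It was 0.09 without PRL-3 replicate 2 and 1.15 without PRL-3 replicate 1.

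None of the 7 V1 members differed by more than 0.10 between the groups. Atp6v1a, the catalytic subunit A (chromosome 16, 44085402 to 44139705, minus strand), stood at 192 and 184 FPKM in PRL-3 cells, against 207 and 174 in VT cells, a difference of -0.01 (SE 0.12, adjusted p = 0.985 by limma). Atp6v1d, a subunit of the central rotor (chromosome 12, 78840725 to 78861638, minus strand), stood at 44.2 and 40.8 FPKM, against 41.2 and 38.2, a difference of 0.10 (SE 0.10, adjusted p = 0.804 by limma). Atp6v1e1, a subunit of the peripheral stalk (chromosome 6, 120794305 to 120822793, minus strand), stood at 57.7 and 69.8 FPKM, against 70.1 and 64.6, a difference of -0.08 (SE 0.13, adjusted p = 0.861 by limma). Of the 7 V1 subunits, only Atp6v1c1 had the split order, at 193 and 131 FPKM, against 156 and 145. The subunits Atp6v1b2, Atp6v1f and Atp6v1h differed by -0.06 to 0.05 between the groups.

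The split of the PRL-3 pair was described over the whole set. PRL-3 replicate 1 exceeded replicate 2 for 36 of the 46 members (78.3%), against 43.7% of all genes tested, with a median gap of 0.21 on the log2(FPKM + 1) scale for members and -0.04 for all genes. The gap was 0.25 over the 35 tested members outside the pump and 0.08 over the 11 pump subunits. Between VT replicates 1 and 2 the median gap of members was 0.04, against 0.01 for all genes. That VT gap was 0.03 outside the pump and 0.12 for the pump subunits. These medians keep the sign, so that gaps of opposite sign offset each other. In size alone, the PRL-3 gap exceeded the VT gap for 7 of the 11 pump subunits (63.6%), against 63.4% of all genes tested. It did so for 27 of the 35 other members (77.1%). Set against the VT mean, members had a median of 0.09 in PRL-3 replicate 1 and -0.07 in PRL-3 replicate 2, so that the PRL-3 mean was taken over a high and a low library. Summed over the 47 genes, the level was 10849 and 8897 FPKM in PRL-3 cells, against 10395 and 9992 in VT cells, which was 1.61% and 1.23% of the FPKM sum, against 1.45% and 1.41%.

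**Figure D3:**
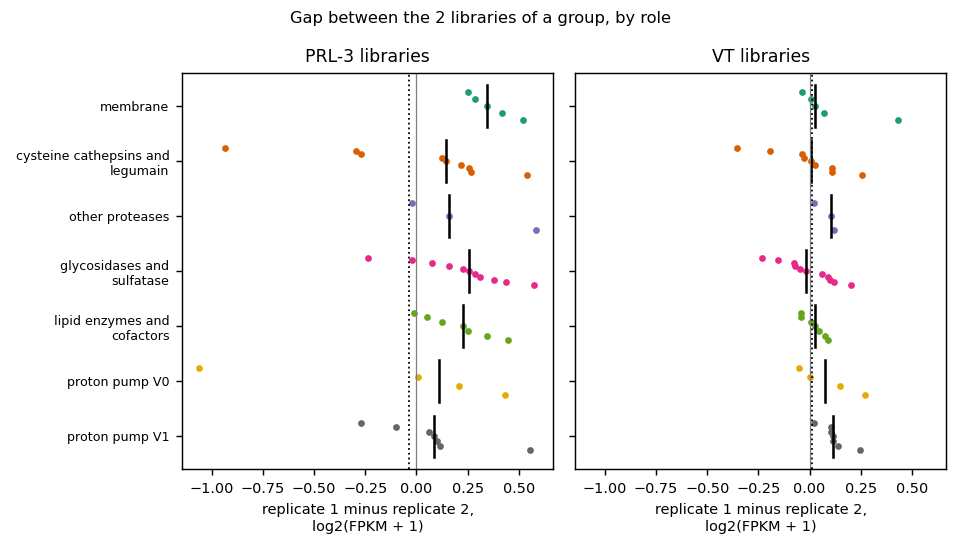
Gap between replicates 1 and 2 on the log2(FPKM + 1) scale for the PRL-3 libraries (left) and the VT libraries (right), with 1 point per tested member, black bars at the median of each role group and a dotted line at the median of all genes tested. In the PRL-3 libraries every role group has a median above the dotted line, from 0.08 for the V1 sector to 0.35 for the membrane proteins. For the V1 sector the median gap of the VT libraries, with signs kept, is 0.12. In size alone, the PRL-3 gap exceeds the VT gap for 4 of the 7 V1 members.

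The direction of most members depended on which PRL-3 library was left out. Without PRL-3 replicate 2, 36 of the 46 members (78.3%) had a difference above 0, against 50.2% of all genes, and the median difference of members was 0.09. Without PRL-3 replicate 1, 15 of the 46 (32.6%) had a difference above 0, against 57.5% of all genes, and the median was -0.07. Such a fit sets 1 PRL-3 library against the VT pair, so that its spread comes from the VT pair and from limma's sharing across genes, and the lone library is assumed to vary likewise. An unadjusted p under 0.05 was found for 10 members (21.7%) without PRL-3 replicate 2, against 21.5% of all genes, and for 7 members (15.2%) without PRL-3 replicate 1, against 11.1% of all genes, shares near the background. No member was called by limma in either fit.

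**Figure D4:**
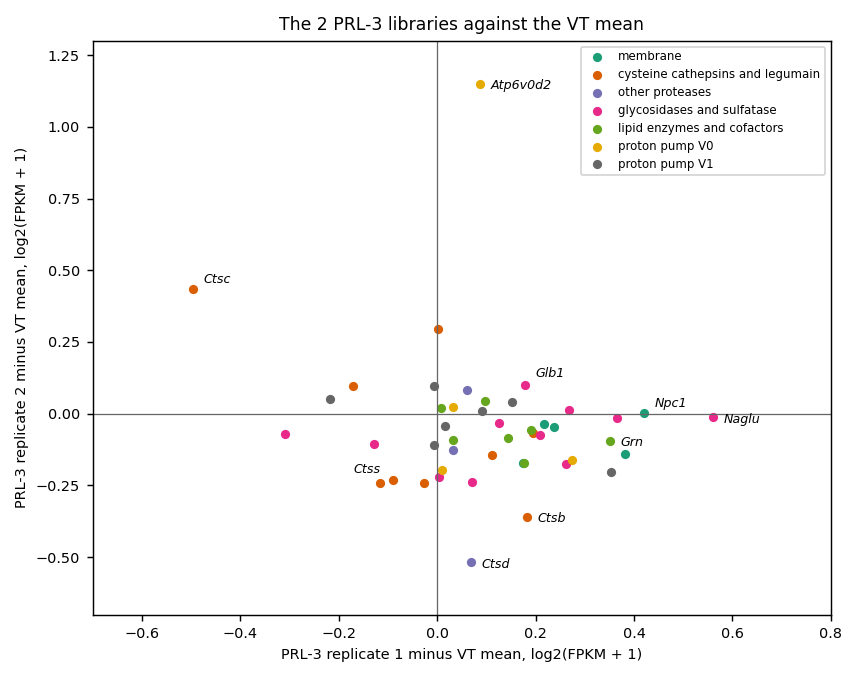
PRL-3 replicate 1 (horizontal) and PRL-3 replicate 2 (vertical) minus the mean of the VT libraries on the log2(FPKM + 1) scale, with 1 point per tested member coloured by role. Most members lie right of 0 on the horizontal axis and below 0 on the vertical one, with medians of 0.09 and -0.07, while Ctsc and Atp6v0d2 lie high.

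Some measures of the libraries moved with the split and others did not. The sum of the mitochondrially encoded transcripts was 43454 and 59986 FPKM in PRL-3 replicates 1 and 2, against 50248 and 52559 in VT cells, an order opposite to that of the lysosomal genes, as was that of the FPKM sum over all genes. The summed macrophage markers were at 7908 and 8018 FPKM in PRL-3 cells, against 9035 and 9096 in VT cells, a sum made up mostly of Lyz2, at 5916 and 5988 FPKM, against 6822 and 6831. Within that list the markers differed in order. Fcgr1 had both PRL-3 libraries above, at 114.87 and 80.42 FPKM, against 69.47 and 76.65. Cd14, like Lyz2, had both below, at 884 and 1048 FPKM, against 1152 and 1206. Adgre1, which encodes the macrophage surface receptor used to mark these cells, had the split order at 53.8 and 40.7 FPKM, against 43.0 and 45.6, as did Itgam at 225 and 202 FPKM, against 219.7 and 207, while Csf1r had the opposite order at 91.6 and 119 FPKM, against 114 and 105. Rescaling each library to a common sum raised the count of split members to 25 (12.5% of all genes), and median-of-ratios scaling gave 21 (9.46%). Over all genes the gap rose with GC content, with medians from -0.08 in the lowest of 5 equal bins of genes to 0.01 in the highest, and with transcript length from -0.09 to -0.02. With every library corrected for GC content and length, 20 members had the split order (9.67% of all genes). The part of these measures in the split was not tested.

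Members whose promoter held the longer palindrome did not stand apart between the groups. For these 6 genes the median difference was 0.02 and the median gap between the PRL-3 libraries 0.30. For the 8 with CACGTG alone the medians were 0.08 and 0.17, and for the 24 with neither they were 0.01 and 0.22. The split order was found for 2 of the 6, 1 of the 8 and 13 of the 24. Of the 4 genes of the factor family, 0 were called and none separated the groups. Tfe3 was at 45.9 and 44.4 FPKM in PRL-3 cells, against 44.6 and 44.0 in VT cells (adjusted p = 0.949 by limma). Tfeb was at 6.33 and 4.06 FPKM, against 4.41 and 6.20 (adjusted p = 0.975 by limma), and Tfec at 9.98 and 7.91, against 9.71 and 8.41 (adjusted p = 0.978 by limma). Mitf, a factor of the same family, was at 16.8 and 25.9 FPKM, against 16.3 and 16.9, high in PRL-3 replicate 2 alone (adjusted p = 0.656 by limma).

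Another 74 genes of lysosome assembly and function were examined, of which 61 were tested. None was called by limma, 30 had a difference above 0 and 31 one below 0, and the median difference was -0.01. The PRL-3 pair was clear above the VT pair for 13 of the 61 (21.3%) and below for 11 (18.0%), shares close to those of all genes. The split order was found for 12 (19.7%), against 7.17% of all genes. The opposite order was found for 5 (8.2%), against 12.4% of all genes. Of the 61, 3 had an unadjusted p under 0.05 by limma, against 9.51% of all genes tested. Laptm4a, a small transmembrane protein of late endosomes and lysosomes, was at 115 and 114 FPKM in PRL-3 cells, against 95.4 and 95.4 in VT cells, a difference of 0.26 (SE 0.10, adjusted p = 0.510 by limma). Ctns, the cystine exporter, was at 11.4 and 11.7 FPKM, against 14.2 and 14.2, a difference of -0.28 (SE 0.11, adjusted p = 0.513 by limma). Cst3, the secreted inhibitor cystatin C that blocks cysteine cathepsins, was at 398 and 406 FPKM, against 492 and 476, a difference of -0.27 (SE 0.10, adjusted p = 0.513 by limma). In each of the 3 the PRL-3 libraries were close to each other and apart from the VT libraries. Naming genes by a low p favours that order, so no contrast with the members is drawn from it.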

How the data were processed

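RNA-seq libraries of cells labelled as Kupffer cells were grouped by the exosomes named in the sample titles, with 2 per group. The values that the authors deposited name no unit and were read here as FPKM because values were not whole and column sums differed. The submitters' processing notes name RSEM, DESeq2 and mm10. The aligner was not given in the sources used here. No step states that strand was kept. The paper supplied with the task describes another experiment and gave no method. Positions, GC content and lengths were from GENCODE M21 (GRCm38), which matched all 47 members and 52083 of 55359 Ensembl identifiers. Of the members, 23 carried an assembled-transcript identifier as well.

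Genes that reached 1 FPKM in 2 libraries or more were compared on log2(FPKM + 1) with limma 3.58.1 (R 4.3.3), using a mean-variance trend and robust moderation, with Benjamini-Hochberg adjustment over 12193 genes and calls at an adjusted p under 0.05. The script was tested on simulated data. Depth was fitted so that low values of single-transcript genes of 600 to 2000 bases became whole fragments (89.1% to 90.6% within 0.2 fragments), and fragment numbers of single genes are approximations. Members, role groups and lists were chosen with earlier results of these data known. Full statistics were given, for each role group, for the most abundant member and the next with the largest differences, up to 3, and other members were named after their values were seen. Alternatives were another pseudocount, filter, scaling or moderation, a replicate block, leaving out each library and, added after seeing the data, a loess correction for GC content and length. Of the other lysosomal genes listed, Tmem55b was not found by symbol.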

Additional observations from a re-analysis of the deposited data

How the results depend on the processing

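No alternative called a member by limma. The member median kept within 0.10 of its main value in all of them but one, at -0.070 without PRL-3 replicate 1, and ran from -0.070 to 0.094 over the fits that left out 1 library. The calls over all genes were 6 and fell to 1 with a pseudocount of 0.1, 1 with a pseudocount of 5, 1 with a mean FPKM of 5 or more, 2 without trend and robust moderation, and 0 with no filter (1509 at an unadjusted p under 0.05 by limma). They ran from 0 to 100 when 1 library was left out, with 100 in the absence of PRL-3 replicate 2, and were 0 when either VT library was left out (549 and 350 at an unadjusted p under 0.05 without VT replicates 1 and 2, by limma). Shares of all genes follow in brackets. Members with both PRL-3 libraries above numbered 1 (24.3%), and 3 with the GC and length correction (21.3%). They numbered 4 after rescaling (26.1%) and 4 to 28 with 1 library left out (34.3% to 43.9%). Those with both below numbered 1 (18.0%), and 4 with the correction (21.9%), 4 with median-of-ratios scaling (20.7%) and 2 after rescaling (16.1%). With 1 library left out they numbered 5 to 25 (28.8% to 39.9%), where 1 library of a group has to clear fewer others. The median gap of the PRL-3 pair was 0.31 after rescaling.

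Of the 21 members named with SE and adjusted p, 13 changed sign in at least 1 alternative, none of them past the threshold. Lamp1 was at -0.015 with median-of-ratios scaling and Atp6v1a at 0.009 after rescaling. With 1 library left out, Lamp1 ran from -0.17 to 0.18, Mcoln1 from -0.14 to 0.38, Ctsb from -0.36 to 0.18, Ctsd from -0.52 to 0.068, Ctsa from -0.13 to 0.032, Gusb from -0.24 to 0.070, Naglu from -0.013 to 0.56, Grn from -0.094 to 0.35, Smpd1 from -0.058 to 0.19, Atp6v0c from -0.20 to 0.0099, Atp6v0d1 from -0.16 to 0.27, Atp6v1a from -0.14 to 0.11 and Atp6v1e1 from -0.22 to 0.052.

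The groups share replicate numbers, but the labels do not say that a number marks a shared culture or day, and the gaps between replicates 1 and 2 of the groups had a correlation of -0.06 across genes, which are not independent replicates. With the replicate block, 15 genes and 0 members were called, and the member median was 0.04. With 2 libraries a group, the intervals left room for changes of about 1.24-fold in a typical member.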

Other observations

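The genes that were high in PRL-3 replicate 2 alone, Ctsc, Atp6v0d2 and Mitf, were set beside 7 markers of osteoclasts, since Atp6v0d2 and Ctsk are known from these cells. Only values are given, and the genes described were chosen after their values were seen. Acp5, the tartrate-resistant acid phosphatase, was at 16.7 and 34.9 FPKM in PRL-3 replicates 1 and 2, against 21.45 and 20.96 in VT replicates 1 and 2. Nfatc1, the transcription factor of osteoclast formation, was at 10.6 and 16.4 FPKM, against 12.5 and 12.9. Both had the order of Ctsc, with PRL-3 replicate 2 highest and PRL-3 replicate 1 lowest, as did 12.4% of all genes tested. The macrophage marker Csf1r had it too. Ctsk did not, at 1.59 and 2.12 FPKM in PRL-3 cells, against 1.58 and 2.30 in VT cells. Dcstamp, needed for cell fusion, was at 17.6 and 16.6 FPKM, against 21.6 and 21.5, with both PRL-3 libraries below. Calcr, the calcitonin receptor, was listed at 0 in all 4 libraries, and Ocstamp and Oscar were at 0.69 FPKM or less and Mmp9 at 1.11 or less. The summed level of the 7 markers was 46.2 and 69.0 FPKM in the PRL-3 libraries, against 57.1 and 56.9 in the VT libraries.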
